A study of Mus musculus with 8 samples.

Results

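CXCL13, MET, SAA3, KCNJ1, SALL3 and EPB41L4B are 6 of the 16417 genes of a gene-level expression table of mouse B cell leukemias, and each was far higher on 1 of the 8 arrays than on the other 7. They were chosen by that reading: the highest array had to exceed the next by over 3 log2 units. The levels on the arrays and the size of these gaps are therefore a description and carry no test. 5 of the 6 names stand in the table as written, and EPB41L4B was found through its RefSeq synonym EPB4.1L4B. Mouse symbols (Cxcl13, Met, Saa3, Kcnj1, Sall3, Epb41l4b) are used from here on.

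The arrays measured total RNA of leukemia cells from 4 ROR1xTCL1 transgenic mice, which carried both the ROR1 and the TCL1 transgene, and from 4 TCL1 transgenic mice, which carried TCL1 alone, with 1 array per mouse. TCL1 transgenic mice are a widely used model of chronic lymphocytic leukemia, and all 8 leukemias carried that transgene. The promoters of the transgenes, the strain, the age of the mice, the organ and any purification of the leukemia cells are not given in the sources used here. B cell markers were high on every array: the mean of 13 markers was 9.23 to 9.63 on the ROR1xTCL1 arrays and 9.13 to 9.68 on the TCL1 arrays (log2). Columns of the gene-level table name a genotype but not the replicate number that the sample titles give, and they are called arrays a to d of each group. The Y-linked genes Ddx3y and Kdm5d were high on ROR1xTCL1 arrays c and d and TCL1 array c, with Ddx3y at 7.70, 8.15 and 7.29. On the other arrays Ddx3y was at 2.42 to 2.88. By this reading both groups mixed the sexes, and sex was not part of the group comparison. Gene values were taken as log2. On this scale the first quartile of all genes lay between 3.52 and 3.71 and the median between 5.03 and 5.09, depending on the array.

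The 6 genes have different roles and different known sources. Cxcl13 encodes a chemokine that draws B cells into lymphoid follicles through the receptor Cxcr5, and it is made by follicular dendritic cells and other stromal cells, by follicular helper T cells in humans and by macrophages of the body cavities. Met encodes the receptor tyrosine kinase for hepatocyte growth factor, best known from epithelial cells and hepatocytes. Saa3 encodes a serum amyloid A protein, which in mice is induced in macrophages, adipocytes and epithelial cells during inflammation. Kcnj1 encodes ROMK, the inward rectifier potassium channel of the kidney tubule. Sall3 encodes a zinc finger transcription factor of the spalt family, known from development of the nervous system and limbs. Epb41l4b encodes a FERM domain protein of the band 4.1 family, which ties membrane proteins to the cytoskeleton and is known from epithelial cells. In bulk RNA such as this, more cells of a type and more RNA per cell cannot be told apart.

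Cxcl13, Saa3 and Met were all highest on ROR1xTCL1 array b, and their promoters are shown to set the sequences of these co-occurring genes side by side. Each is the 250 bases before the transcription start in RefSeq, assembly GRCm38.p6, written 5′ to 3′ on the strand of the gene. Capitals mark matches, on either strand, to 5 motifs that were searched: the TATA box motif spelled TATAAA, the C/EBP motif spelled TTNNGCAA, the AP-1 motif spelled TGANTCA, the GATA motif spelled AGATAA and the NF-kB consensus. Cxcl13 lies at chr5:95956689-95956938 on the plus strand, Saa3 at chr7:46715677-46715926 on the minus strand and Met at chr6:17463707-17463956 on the plus strand.
Cxcl13: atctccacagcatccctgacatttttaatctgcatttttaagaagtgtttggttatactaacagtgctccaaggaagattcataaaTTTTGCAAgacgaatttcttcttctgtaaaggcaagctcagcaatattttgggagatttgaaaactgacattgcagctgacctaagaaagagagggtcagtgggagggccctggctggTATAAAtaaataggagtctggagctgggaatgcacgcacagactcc
Saa3: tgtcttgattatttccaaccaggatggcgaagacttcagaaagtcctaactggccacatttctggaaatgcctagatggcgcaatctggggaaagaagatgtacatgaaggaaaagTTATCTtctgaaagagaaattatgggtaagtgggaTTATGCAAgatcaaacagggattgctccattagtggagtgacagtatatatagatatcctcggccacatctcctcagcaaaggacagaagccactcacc
Met: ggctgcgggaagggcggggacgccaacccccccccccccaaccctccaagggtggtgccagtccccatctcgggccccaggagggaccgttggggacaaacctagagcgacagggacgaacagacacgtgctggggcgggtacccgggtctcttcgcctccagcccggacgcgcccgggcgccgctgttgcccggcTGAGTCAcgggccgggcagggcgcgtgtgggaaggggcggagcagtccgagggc
The Cxcl13 promoter held a TATA box 46 to 41 bases before the start and a C/EBP match 164 to 157 bases before it. The Saa3 promoter held a C/EBP match 99 to 92 bases before the start and a GATA match on the opposite strand 134 to 129 bases before it. The Met promoter held 1 AP-1 match, 54 to 48 bases before the start. Among 27025 RefSeq promoters of the same length, 13.0% held a TATA box, 9.55% a C/EBP match, 6.87% an AP-1 match, 10.3% a GATA match and 7.01% an NF-kB consensus match. Met also differed from the others in base composition, with 24 CpG dinucleotides and 74.0% G or C, against 2 CpG and 42.0% in Cxcl13, 3 CpG and 43.2% in Saa3, and a median of 6 CpG over all promoters. Only the C/EBP motif, of the 5 searched, was matched in 2 of these 3 promoters, and none was matched in all 3. The TATA box was searched only as TATAAA, so the stretch tatatata in the Saa3 promoter was not counted.

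Across the gene table, 8 of 16417 genes (0.0487%) had a highest array more than 3 log2 units above the next. They were the 6 genes described here together with Trim29 and Nectin1, both highest on ROR1xTCL1 array a. This count was 5 without ROR1xTCL1 array a, 5 without ROR1xTCL1 array b and 16 without TCL1 array c. Kcnj1 lay just inside the threshold with a gap of 3.06. Galnt14, which encodes an enzyme that starts O-linked glycosylation, lay just outside it with a gap of 2.93 on ROR1xTCL1 array b. 22 genes had a gap over 2 and 276 genes a gap over 1.

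**Figure D1:**
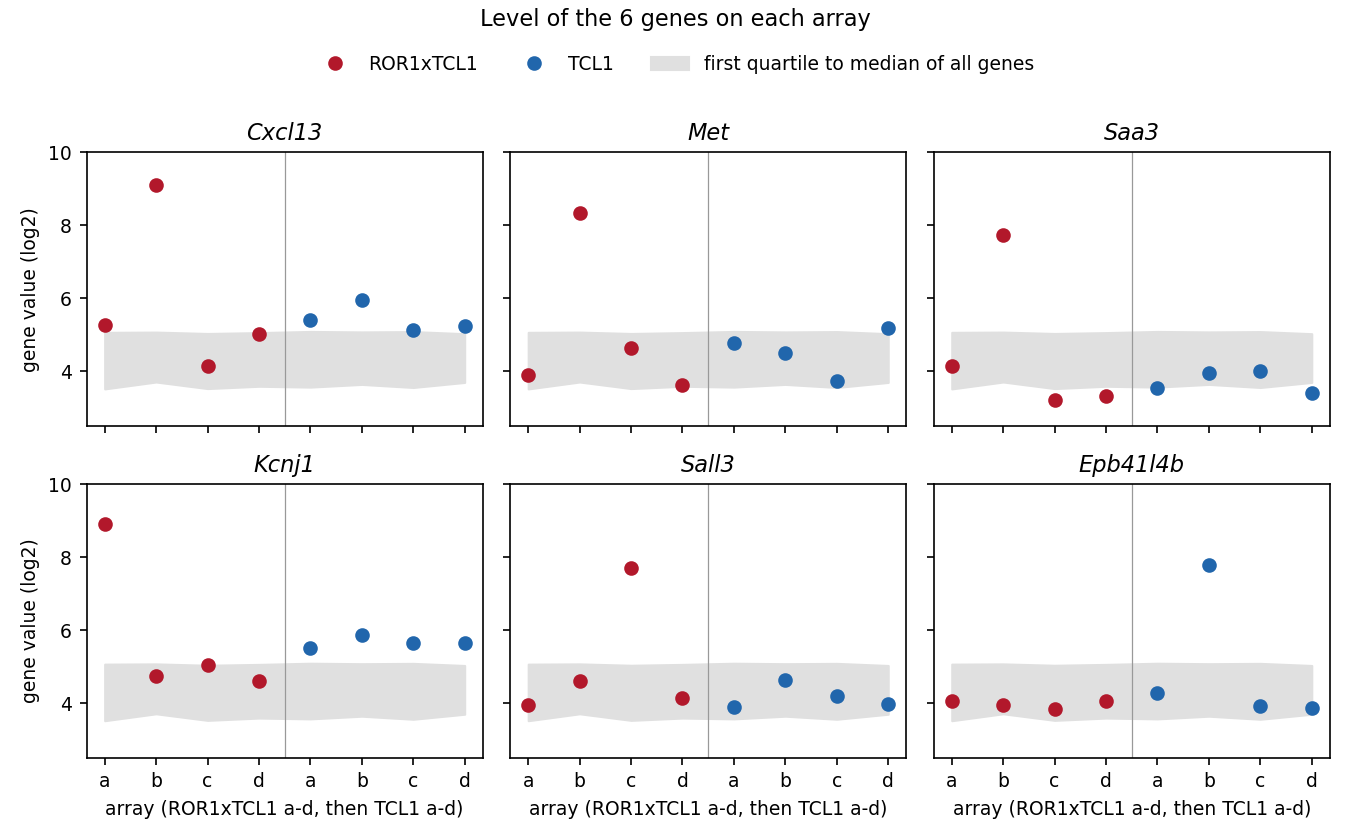
Gene value (log2, vertical axis) of the 6 genes on each of the 8 arrays, ROR1xTCL1 arrays a to d in red on the left of each panel and TCL1 arrays a to d in blue on the right; each point is 1 array and the grey band runs from the first quartile to the median of all genes on that array. One point stands far above the band in every panel, for Cxcl13, Met and Saa3 on the same array, ROR1xTCL1 b.

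Cxcl13 reached 9.10 on ROR1xTCL1 array b. Its log2 level was 5.27, 4.15 and 5.01 on ROR1xTCL1 arrays a, c and d, and 5.40, 5.95, 5.12 and 5.25 on TCL1 arrays a to d. Array b of ROR1xTCL1 stood 3.15 above the next, TCL1 array b, or 8.85-fold. The remaining 3 ROR1xTCL1 arrays and the 4 TCL1 arrays overlapped, and 5 of those 7 lay above the median of all genes of their array.

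Met reached 8.34 on ROR1xTCL1 array b. Its log2 level was 3.91, 4.64 and 3.62 on ROR1xTCL1 arrays a, c and d, and 4.77, 4.51, 3.73 and 5.19 on TCL1 arrays a to d. The gap to the next array, TCL1 array d, was 3.15, or 8.90-fold, and 6 of the other 7 values lay below the median of all genes of their array.

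Saa3 had the largest gap of the 6 genes, 3.58, or 12-fold. Its log2 level was 4.16, 7.74, 3.22 and 3.32 on ROR1xTCL1 arrays a to d, and 3.54, 3.96, 4.01 and 3.40 on TCL1 arrays a to d. On 4 of the 7 other arrays it lay under the first quartile of all genes.

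These 3 genes are also the 3 largest gaps on ROR1xTCL1 array b, where 17 genes in all (0.104%) exceeded the next array by over 1. The next genes in order were Galnt14 at 7.41 there against at most 4.48 on the other 7, Nrp1, a co-receptor for semaphorins and vascular endothelial growth factor, at 7.47 against at most 5.90, and Sparc, which encodes a matrix-associated glycoprotein, at 8.13 against at most 6.59. Over the 8 arrays Pearson's r was 0.96 between Cxcl13 and Saa3, 0.88 between Cxcl13 and Met and 0.87 between Met and Saa3. These coefficients rest on the shared high array. Over the other 7 arrays they were 0.59, 0.05 and -0.40, given as a description with no test.

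Among the 16 other genes with a gap over 1 on that array, those most like Cxcl13 over the 8 arrays were Saa3 (r = 0.96), Galnt14 (0.94), Gpc6 (0.93), a cell-surface glypican, and C3ar1 (0.92), the receptor for complement fragment C3a. Met was most like Galnt14 (0.95), Nxt2 (0.91), a cofactor of mRNA export, Vav3 (0.90) and Cxcl13 (0.88). Saa3 was most like C3ar1 (0.96), Cxcl13 (0.96), Galnt14 (0.96) and Ifna12 (0.95), an interferon alpha gene that stood at 3.64 on ROR1xTCL1 array b and at 2.11 to 2.63 elsewhere. C3ar1 stood at 5.77 on ROR1xTCL1 array b and at 3.78 to 4.57 on the other 7. These genes were taken from those high on the same array, so a high r over the 8 arrays follows from the choice. Over the other 7 arrays r ran from -0.02 to 0.59 for the 4 genes listed with Cxcl13, from 0.05 to 0.77 for those with Met and from -0.52 to 0.68 for those with Saa3.

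Each gene is read by several probe sets, groups of probes that lie mostly in 1 exon. The probe set columns are tied to the samples, whose titles number replicates 1 to 4 of each group. No array letter was matched to a replicate number. They are a second summary of the same hybridisations and so no independent evidence. All 26 probe sets of Met were highest on ROR1xTCL1 replicate 2, and 25 of them by over 1, with a median gap of 2.81. For Cxcl13, 6 of 7 probe sets were highest on that replicate, each of these by over 2. For Saa3, 5 of 5 probe sets were highest on it and 4 by over 1. The means over all probe sets of a gene stood above the next replicate by 3.08 for Met, 3.01 for Cxcl13 and 2.66 for Saa3.

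Saa3 has close paralogs in a cluster on chromosome 7, so probes for them may share targets. In the gene table Saa1 was at 1.99, Saa2 at 2.02 and Saa4 at 2.20 on ROR1xTCL1 array b, all under the first quartile of the array. At the probe set level the reading was not uniform. Of 10 probe sets annotated to Saa1, Saa2 or both, 2 were over 1 above the next on ROR1xTCL1 replicate 2. The probe set annotated to Saa1 alone was at 7.37 on that replicate and at 1.81 to 4.41 on the other 7. A probe set annotated to both was at 9.74 on it and at 3.35 to 6.30 on the other 7. The remaining 8 were not highest there. The gene whose RNA those 2 probe sets bound was not tested, so the level of Saa3 relative to its paralogs is uncertain.

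**Figure D2:**
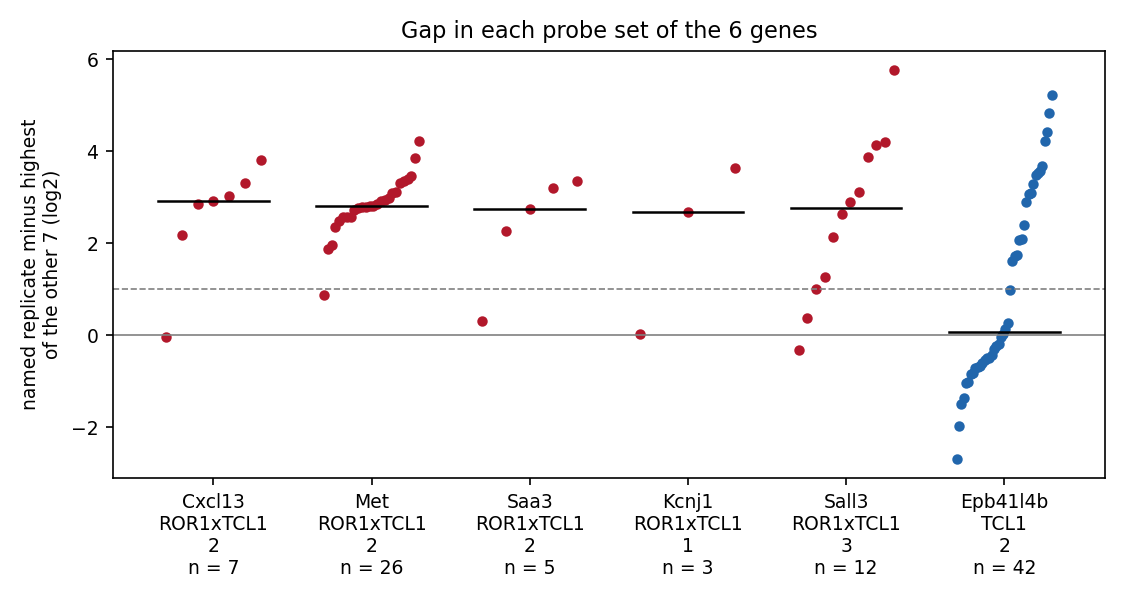
Gap of each probe set (value on the named replicate minus the highest of the other 7 replicates, log2, vertical axis) for the 6 genes, with probe sets sorted within a gene, the median as a black line, the dashed line at 1 and n the number of probe sets; red is for a ROR1xTCL1 and blue for a TCL1 replicate. The 26 probe sets of Met all lie above 0, whereas those of Epb41l4b spread from below 0 to above 5.

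The cells known to make Cxcl13 were looked at through marker lists on ROR1xTCL1 array b, with macrophages of the body cavities read under Saa3 below. On that array 18.4% of all genes were highest, and the median of all genes stood 0.05 above the median of the other 7. Of 10 measured follicular dendritic cell markers, 1 was highest on that array and none by over 1, with a median difference of -0.04. Their mean was 4.93 there and 4.70 to 5.36 on the other 7 arrays. Of 12 measured fibroblastic reticular and other stromal markers, 1 was highest, and 5 of the 12 lay under the first quartile of the array. The listed stromal chemokine genes Ccl19 and Ccl21a had no gene value. The follicular helper T cell list had 0 of 8 highest. Cxcr5, the receptor of this chemokine, was at 9.48 on ROR1xTCL1 array b and at 9.37 to 9.92 over all 8 arrays, so every leukemia carried it at a high level.

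A list for the lymphotoxin and non-canonical NF-kB route, which induces Cxcl13 in lymphoid stroma, also held Tnf and its receptors. The listed genes Ltbr, Relb and Tnfrsf13c had no gene value. Of the 13 measured genes, 2 were highest on ROR1xTCL1 array b. One of them was Tnf, the cytokine tumour necrosis factor, at 7.23 there against 4.50 to 6.90 on the other 7. Tnf was at 6.36 and 6.90 on TCL1 arrays a and d, where Cxcl13 was at 5.40 and 5.25. Of 10 genes for the receptor and related chemokines, 2 were highest on array b.

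For Met, the list of 18 ligand, receptor and signalling genes had 5 highest on ROR1xTCL1 array b and a median difference of 0.09. Hgf, which encodes the ligand, was at 3.12 on that array and at 2.67 to 3.91 over the 8 arrays, near or below the first quartile of all genes. The adhesion receptor Cd44, which can act with Met, was highest there at 10.04 against 8.81 to 9.87 elsewhere, as was Plau, the urokinase protease, at 5.23 against 4.35 to 5.15. The widest difference in the list was downward: Spint2, an inhibitor of the proteases that activate hepatocyte growth factor, was lowest there at 5.61 against 6.18 to 7.30. The membrane protease gene St14 was also lowest at 5.73 against 5.89 to 7.30, as was Gab1, the docking adaptor of Met, at 3.95 against 4.07 to 5.28. These 3 were named after their values were seen. Of 14 epithelial markers, 6 were highest on the array, none by over 1, and their mean was 4.16 there and 3.95 to 4.16 on the other 7. The hepatocyte list had 1 of 10 highest, and the fibrinogen gene Fgb was at 3.31 against 3.03 to 3.35.

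For Saa3, the list of 15 serum amyloid and acute phase genes had 4 highest on ROR1xTCL1 array b, with a mean of 4.28 there and 3.90 to 4.73 on the other 7. Lcn2, an iron-siderophore-binding protein of neutrophils and acute inflammation, was at 9.07 there, below 2 TCL1 arrays at 11.78 and 9.93. The inflammatory myeloid list had 2 of 13 highest and the monocyte and macrophage list 0 of 16, with a mean of 5.61 there and 4.99 to 6.95 on the other 7. For macrophages of the peritoneum, 3 of 13 markers were highest, Prg4 at 4.16 against 3.17 to 3.79, Naip1 at 3.53 against 2.83 to 3.28 and Gata6, named after its value was seen, at 5.52 against 4.99 to 5.32. That share compares with 18.4% of all genes, and the mean of the list was 4.39 there and 4.04 to 4.77 on the other 7. Of the 13, 10 were above the median of the other 7, against 58.0% of all genes. The median difference of the list was 0.20, against 0.05 over all genes. Fabp4 had the largest difference upward, at 4.23 against 2.86 to 4.82, and was not highest there. Cd5l, a macrophage protein of the same list that was also named after its value was seen, went the other way, at 4.36 against a median of 6.31 on the other 7. The adipocyte list had 4 of 10 highest, none by over 1, with a median difference of 0.20. Counts like this and that of the epithelial markers were also seen for cells not named as sources of these genes. Of 14 kidney tubule markers 6 were highest there (median difference 0.15), and of 11 neuron and neural progenitor markers 4 (0.18). The first quartile of all genes, 3.71, was also higher on this array than on any other. No gene of any of these lists exceeded the next array by over 1, and the part of any of these cells in the levels of Cxcl13, Met and Saa3 was not tested.

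**Figure D3:**
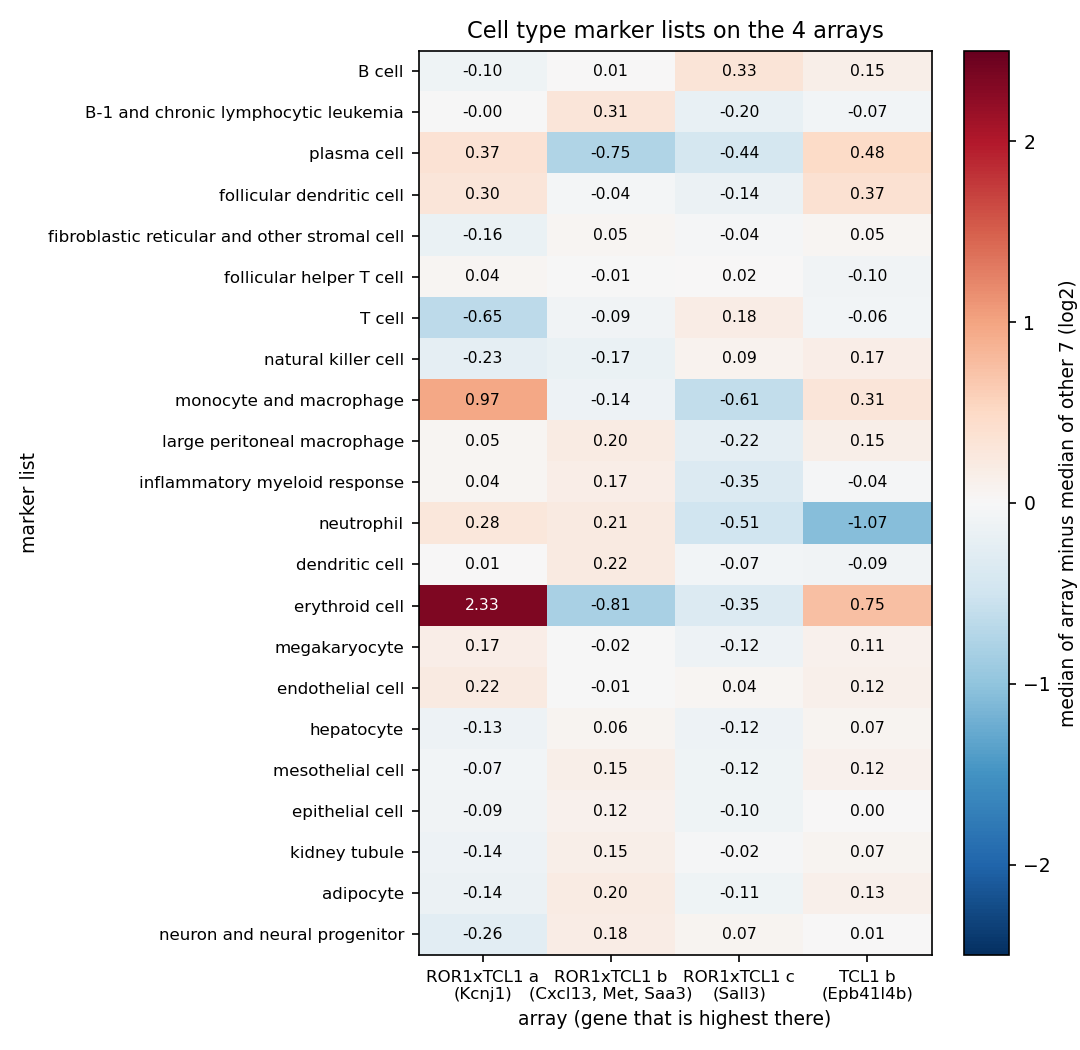
Median, over the measured genes of each cell type marker list (rows), of the level on an array minus the median of the other 7 arrays (log2, colour and printed number), for the 4 arrays on which a named gene was highest (columns, ROR1xTCL1 arrays left of the TCL1 array). The erythroid list on ROR1xTCL1 array a has the largest value, 2.33, and on ROR1xTCL1 array b, where Cxcl13, Met and Saa3 were highest, the values run from -0.81 to 0.31.

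Kcnj1 was highest on ROR1xTCL1 array a. Its log2 level was 8.92, 4.75, 5.05 and 4.61 on ROR1xTCL1 arrays a to d, and 5.51, 5.86, 5.64 and 5.64 on TCL1 arrays a to d. The gap to the next array, TCL1 array b, was 3.06, or 8.33-fold, and 5 of the other 7 values lay above the median of all genes of their array. Without array a, the other 3 ROR1xTCL1 arrays lay at 4.61 to 5.05, all below the 4 TCL1 arrays at 5.51 to 5.86. Among all genes, 273 (1.66%) were lower in ROR1xTCL1 without overlap on those 7 arrays. Kcnj1 has 3 probe sets. On ROR1xTCL1 replicate 1 they read 8.29, 10.47 and 4.27, against at most 4.64, 7.80 and 4.25 on the other 7 replicates, so 2 of the 3 carried the gap.

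ROR1xTCL1 array a stood apart in other genes as well: 106 genes (0.646%) exceeded the next array there by over 1, and 9.03% of all genes were highest on it. The leading genes besides Trim29, Nectin1 and Kcnj1 were Aqp12, a member of the aquaporin family, at 9.12 against at most 6.79, Cldn13, of the claudin family, at 9.40 against at most 7.59, and Kel, the Kell blood group protein of red cells, at 8.75 against at most 7.02. All 9 measured erythroid markers were highest on this array and 7 of them by over 1, with a mean of 9.15 there and 6.30 to 7.73 on the other 7. Alas2, the haem synthesis enzyme of erythroid cells, was at 11.06 against 7.47 to 10.11, and Slc4a1, the anion exchanger of the red cell membrane, was at 10.87 against 7.64 to 9.46. Of 16 monocyte and macrophage markers, 16 were above the median of the other 7, against 40.0% of all genes on this array, and 7 were highest of all arrays. The mean of that list was 6.73 there, below the 6.95 of TCL1 array a. Endothelial markers had 7 of 11 highest on ROR1xTCL1 array a, none by over 1, with a mean of 4.47 against at most 4.33. Of those 11, 4 lay under the first quartile of the array. Megakaryocyte markers had 4 of 8 highest, none by over 1, with a mean of 5.31 against at most 5.005.

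The erythroid markers were set against Kcnj1 on all arrays. Pearson's r between Kcnj1 and the mean of the erythroid markers was 0.91 over the 8 arrays and 0.75 over the 7 without ROR1xTCL1 array a, as a description with no test. On those 7 the erythroid mean was 6.30 to 6.96 on ROR1xTCL1 arrays b to d and 6.56 to 7.73 on the TCL1 arrays. Kcnj1 was lower on those 3 ROR1xTCL1 arrays than on any TCL1 array, so the coefficient over 7 arrays includes the difference between the groups. Within the TCL1 arrays Kcnj1 spanned only 5.51 to 5.86, and the order was shared on arrays b, c and d but not on array a. On TCL1 arrays b, c and d the erythroid mean was 7.69, 7.32 and 6.56 and Kcnj1 was 5.859, 5.645 and 5.636. TCL1 array a had the highest erythroid mean of that group, 7.73, and the lowest Kcnj1, 5.51. The part of erythroid RNA in the level of Kcnj1 was not tested. Of 14 kidney tubule markers, 0 were highest on ROR1xTCL1 array a, against 9.03% of all genes. Their mean of 3.90 was the lowest of the 8 arrays, the other 7 being at 3.99 to 4.19. The means of the neuron and neural progenitor list, 3.40, and of the stromal list, 3.83, were also lowest on that array. The low reading was thus not limited to kidney markers. Aqp2, the water channel of the collecting duct, was at 5.03 on that array and at 4.89 to 5.34 on the other 7.

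Among 105 other genes with a gap over 1 on ROR1xTCL1 array a, the most similar to Kcnj1 were Plek2 (r = 0.97), a pleckstrin family protein, Tom1l1 (0.97), an adaptor of endosomal sorting, Cbr2 (0.97), a carbonyl reductase, and Slc38a5 (0.96), an amino acid transporter. Here too the choice of candidates sets a high r, and over the other 7 arrays the 4 coefficients ran from 0.70 to 0.84. With the mean of the erythroid markers, r over those 7 arrays was 0.40 for Plek2, 0.94 for Tom1l1, 0.87 for Cbr2 and 0.95 for Slc38a5. Of 9 genes that regulate the Kcnj1 channel, 2 were highest on that array, with a median difference of -0.03. Those 2 were Cul3 at 9.64 against 9.12 to 9.61, a scaffold of ubiquitin ligases, and Wnk1 at 9.94 against 9.57 to 9.86, a kinase of renal salt handling.

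Kcnj5, which encodes another inward rectifier channel and lies next to Kcnj1 on chromosome 9, was the one gene of 13 other inward rectifiers over 1 above the median of the other 7 on ROR1xTCL1 array a. It was at 7.93, 4.96, 5.23 and 3.94 on ROR1xTCL1 arrays a to d, and at 4.84, 6.42, 8.15 and 4.54 on TCL1 arrays a to d. Kcnj5 was thus high on 2 arrays, and on TCL1 array c, where it was highest, Kcnj1 was at 5.64. Among its 11 probe sets, 10 were highest on ROR1xTCL1 replicate 1, but with a median gap of 0.06 above the next replicate.

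**Figure D4:**
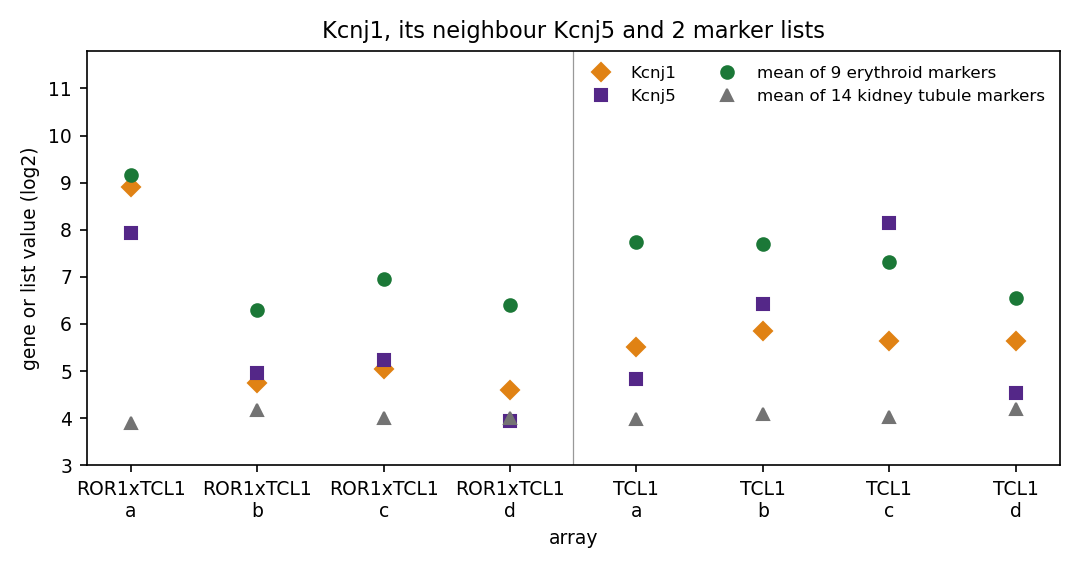
Level (log2, vertical axis) of Kcnj1, of its neighbour Kcnj5 and the means of 9 erythroid and 14 kidney tubule markers on the 8 arrays, ROR1xTCL1 on the left and TCL1 on the right. On ROR1xTCL1 array a Kcnj1, Kcnj5 and the erythroid mean are all high, on TCL1 array c only Kcnj5 of the pair is high, and the kidney tubule mean stays between 3.90 and 4.19.

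Sall3 was highest on ROR1xTCL1 array c. Its log2 level was 3.94, 4.60, 7.71 and 4.13 on ROR1xTCL1 arrays a to d, and 3.89, 4.64, 4.20 and 3.98 on TCL1 arrays a to d. The gap was 3.07, or 8.42-fold, and all 7 other values lay below the median of all genes of their array. Of 12 probe sets, 11 were highest on ROR1xTCL1 replicate 3 and 9 by over 1. The other spalt genes were not high on array c. Sall1 was at 3.71 there and between 3.63 and 4.1 over the 8 arrays, Sall2 was at 3.71 there and between 3.47 and 4.07, and Sall4 was at 4.59 there and between 4.37 and 4.85.

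On ROR1xTCL1 array c, 14 genes (0.0853%) exceeded the next array by over 1, and 9.95% of all genes were highest. After Sall3 the largest gaps were those of Stxbp6, which binds SNARE proteins of membrane fusion, at 8.54 against at most 6.45, Liph, a phospholipase, at 5.13 against at most 3.06, Hsph1, a heat shock chaperone, at 8.94 against at most 7.31, Ahsa2, a relative of the HSP90 activator Ahsa1, at 7.62 against at most 6.14, and P4ha1, a collagen prolyl hydroxylase subunit, at 7.87 against at most 6.69. Among the 13 other genes with a gap over 1 on that array, those most like Sall3 over the 8 arrays were Dsg2 (r = 0.98), a desmosomal cadherin, Ahsa2 (0.94), Oog2 (0.93), an oocyte gene, and Hsph1 (0.90). These values rest on the shared high array, by which the genes were taken. Over the other 7 arrays r was 0.78 for Dsg2, -0.78 for Ahsa2, 0.44 for Oog2 and 0.03 for Hsph1. Of 14 spalt family and partner genes, 2 were highest on that array with a median difference of 0.02, and of 11 neuron and neural progenitor markers 2 were highest with a median of 0.06. The mean of the neural list was 3.73 there and 3.40 to 4.00 on the other 7. Of 13 B cell markers 4 were highest on this array.

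Epb41l4b was the only one of the 6 genes with its high array among the TCL1 leukemias. Its log2 level was 4.04, 3.96, 3.85 and 4.06 on ROR1xTCL1 arrays a to d, and 4.27, 7.79, 3.92 and 3.86 on TCL1 arrays a to d. TCL1 array b stood 3.52 above the next, TCL1 array a, or 11.5-fold. The other 7 values spanned 0.42, the narrowest range of the 6 genes.

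The probe sets of Epb41l4b split. Of 42, 22 were highest on TCL1 replicate 2 and 18 by over 1. Those 18 had a median level of 7.35 on that replicate and 3.57 on the others, while the other 24 had medians of 3.78 and 4.30. The mean over all 42 probe sets stood 1.61 above the next replicate. The split was not seen in Met, where 25 of 26 probe sets had a gap over 1. Whether the 24 lie outside the transcript made in that leukemia was not tested.

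On TCL1 array b, 11 genes (0.067%) exceeded the next array by over 1, and 12.6% of all genes were highest. After Epb41l4b these were led by Klhl13, an adaptor of the Cul3 ubiquitin ligase, at 6.44 against at most 4.32, Olfr972, an olfactory receptor gene, at 3.54 against at most 1.99, Hormad1, a meiotic chromosome protein, at 4.26 against at most 2.86, Egr3, an early response transcription factor of lymphocytes, at 8.54 against at most 7.14, and Crtam, a receptor of activated lymphocytes, at 5.61 against at most 4.23. Among the 10 other genes with a gap over 1 on that array, the most similar over the 8 arrays were Crtam (r = 0.98), the histone gene H2ac11 (0.93), Olfr972 (0.92) and Klhl13 (0.91). As for the other genes, that likeness rests on the high array by which they were taken. Over the other 7 arrays r was 0.64 for Crtam, 0.85 for H2ac11, -0.66 for Olfr972 and -0.24 for Klhl13. Of 15 genes of the band 4.1 and FERM family 3 were highest there, with a median difference of 0.20, and none by over 1. Of 14 epithelial markers 1 was highest, Krt14 being at 4.35 against 3.32 to 3.76, and their mean was 4.14 there and 3.95 to 4.16 elsewhere. Of 13 B cell markers 7 were highest on this array.

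To see whether a stretch of chromosome was high around a gene, the 5 measured genes on either side were read on the same array. Of 10 neighbours each, none of those of Cxcl13, Met, Saa3, Sall3 or Epb41l4b was over 1 above the median of the other 7. Their differences ran from -0.60 to 0.35 around Cxcl13 on chromosome 5, from -0.998 to 0.68 around Met on chromosome 6, from -0.25 to 0.33 around Saa3 on chromosome 7, from -0.37 to 0.71 around Sall3 on chromosome 18 and from -0.61 to 0.34 around Epb41l4b on chromosome 4. The caveolin genes Cav1 and Cav2, the nearest before Met, were at 3.82 and 3.06 on ROR1xTCL1 array b, with medians of 4.03 and 2.90 on the other 7. Around Kcnj1 only Kcnj5 was over 1 above, by 2.97, and Fli1 and Ets1, genes of ETS family transcription factors on the other side of Kcnj1, differed by -0.22 and -0.06. Trim29, also highest on ROR1xTCL1 array a, lies on the same chromosome, with 127 measured genes between it and Kcnj1, of which 0 had a gap over 1 on that array.

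**Figure D5:**
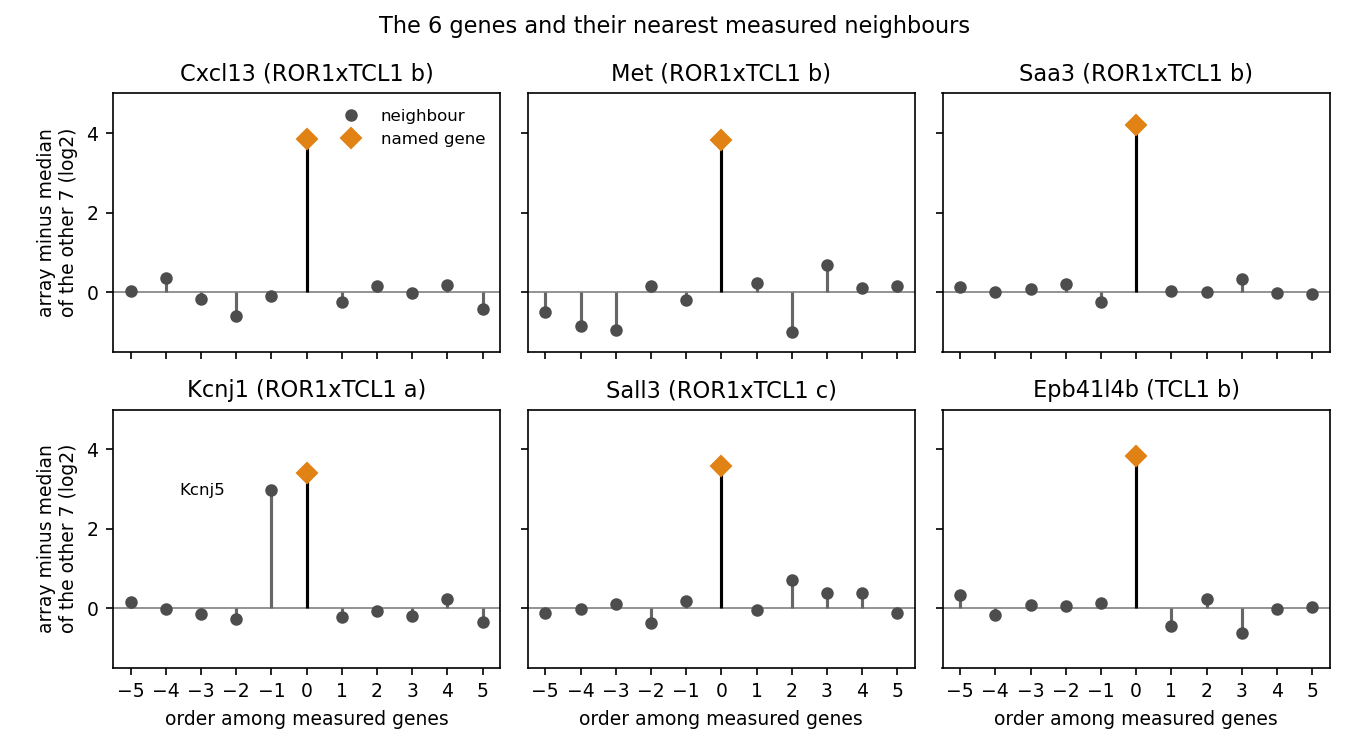
Level on the array where the named gene was highest minus the median of the other 7 arrays (log2, vertical axis) for each of the 6 genes (orange diamond) and its 5 nearest measured genes on either side in RefSeq order (grey points, horizontal axis). The named genes stand at 3.41 to 4.20 and their neighbours between -0.998 and 0.71, apart from Kcnj5 beside Kcnj1 at 2.97.

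The design's comparison is that of ROR1xTCL1 with TCL1 leukemias. In limma's moderated test over the 16417 genes, 0 genes (0.0%) reached an adjusted p under 0.05, with 268 at an unadjusted p under 0.05, so none of the 6 passed. The log2 difference, ROR1xTCL1 minus TCL1, was 0.45 ± 0.92 (SE) for Cxcl13, 0.58 ± 0.93 for Met, 0.88 ± 0.89 for Saa3, 0.17 ± 0.85 for Kcnj1, 0.92 ± 0.74 for Sall3 and -0.98 ± 0.78 for Epb41l4b, each with n = 4 arrays per group and a limma adjusted p of 0.9995. The high array enters both the difference and its standard error. Without the high array the differences were -0.62 ± 0.30 for Cxcl13, -0.49 ± 0.37 for Met, -0.16 ± 0.26 for Saa3, -0.86 ± 0.15 for Kcnj1, 0.04 ± 0.23 for Sall3 and -0.04 ± 0.14 for Epb41l4b. The array left out is the one by which each gene was chosen, so leaving it out had to lower the difference for the 5 genes high on a ROR1xTCL1 array and raise it for Epb41l4b. These values are a description and no test of the group difference.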

How the data were processed

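Affymetrix Mouse Exon 1.0 ST arrays were deposited as a probe set table and a gene table. Per the labels, the probe set table holds log2 RMA values from the package oligo, and the submitters' processing notes list R 2.15.1. The authors' gene table states no scale and was taken as log2; the series text credits the Exon Array Computational Tool. Arrays carry no read depth.

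Names were updated through RefSeq (GRCm38.p6). 4 rows with numeric names were dropped and 74 repeated names averaged, leaving 16417 genes; 321091 of 1236087 probe sets had 1 symbol. The fit used limma 3.58.1 (lmFit, eBayes, 2-sided, Benjamini-Hochberg over all genes) in R 4.3.3. It was tried on the real gene values with group means made equal and known steps added to randomly picked genes. Differences are an array minus the median of the other 7. Members and lists were chosen with earlier results of these data known. Genes were named by rule: the 4 best correlated with each member among genes with a gap over 1 on its array, the 6 largest gaps per array (predicted and antigen receptor genes passed over), 5 neighbours per side, up to 4 genes per list, the other Sall genes, Cxcr5 and Hgf. Ddx3y and Kdm5d were named for the reading of sex. Alternatives were each array left out, probe set means and medians, quantile normalization, trend and robust variance, a filter on dim genes and a replicate block.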

Additional observations from a re-analysis of the deposited data

Results flagged for a closer look

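Within each group of 4 arrays, a value was marked when its distance to the nearest of the others, divided by the range of the group, exceeded Dixon's critical value at the 95% level for 4 values. Chance marks about 1 in 20 groups, and genes named for a gap are marked more often by their choice. The 6 genes were chosen on these same levels, so for them the ratio describes the choice and is no test. Of their 12 readings, 2 were marked: Kcnj1 on ROR1xTCL1 array a (ratio 0.896) and Epb41l4b on TCL1 array b (0.897). Among 82 readings of other named genes, many of them also named for a gap, 14 were marked. On ROR1xTCL1 array a these were high values of Aqp12 (0.96), Plek2 (0.879), Cbr2 (0.891) and Trim29 (0.928). On ROR1xTCL1 array b they were high values of Galnt14 (0.94) and Nxt2 (0.932). On ROR1xTCL1 array c they were high values of Stxbp6 (0.857), Ahsa2 (0.925), P4ha1 (0.835) and Liph (0.885) and a low value of Hgf (0.895). Dsg2 was marked as high on TCL1 array b (0.948), C3ar1 as low on that array (0.885) and Cldn13 as low on TCL1 array d (0.845). Of 60 readings of list means, 4 were marked, all as high: monocyte and macrophage markers (0.884) and megakaryocyte markers (0.831) on ROR1xTCL1 array a, inflammatory myeloid genes on TCL1 array a (0.984) and stromal markers on TCL1 array d (0.87).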

How the results depend on the processing

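No setting called any of the 6 genes, and 0 genes were called under each alternative. With 1 array left out, the high array included, the log2 difference ranged from -0.62 to 1.03 for Cxcl13, -0.49 to 1.08 for Met, -0.16 to 1.34 for Saa3, -0.86 to 0.58 for Kcnj1, 0.04 to 1.30 for Sall3 and -1.35 to -0.04 for Epb41l4b. The sign turned for Cxcl13 with probe set medians (-0.28) and for Kcnj1 with probe set means (-0.11, also with the replicate block); the cause was not tested. The samples share replicate numbers but were not treated as paired: deviations of same-numbered replicates correlated at 0.23, -0.0047, 0.22 and 0.11, so 3 of 4 were over 0.1, against 1 of 12 other pairs (-0.23 to 0.32). With the replicate block 0 genes were called, as without it. The count of genes with a gap over 3 ranged from 5 to 16 with 1 array left out and was 9 with probe set means, 10 with medians and 8 with quantile normalization. All 6 genes kept a gap over 3 after quantile normalization, 3 with probe set means and 1 with medians. With means the gap was 2.66 for Saa3, 2.32 for Kcnj1 and 1.61 for Epb41l4b; with medians it was 2.08 for Cxcl13, 2.11 for Saa3, 3.65 for Kcnj1, 2.55 for Sall3 and 2.65 for Epb41l4b. The filter on dim genes kept all 6. A single array per animal means that a high reading was not repeated on a second hybridisation.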

Other observations

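On ROR1xTCL1 array b the plasma cell and erythroid lists lay low, apart from the 3 genes described above: 1 of 11 plasma cell markers was above the median of the other 7 (median difference -0.75), and 0 of 9 erythroid markers were (-0.81), against 58.0% of all genes. The plasma cell mean was about as low on ROR1xTCL1 array c, at 7.57, and lower on TCL1 array d, at 7.38. The erythroid mean was 6.30 on ROR1xTCL1 array b, and nearly as low on ROR1xTCL1 array d, at 6.40, and TCL1 array d, at 6.56. Of 12 markers of B-1 cells and chronic lymphocytic leukemia, 4 were highest on ROR1xTCL1 array b, where 18.4% of all genes were highest. Above the median of the other 7 were 9 of the 12. The largest difference was that of Anxa2, which encodes an annexin, at 9.0 against 7.07 to 8.49. Cd9 of the same list was lowest there, at 8.06 against 8.08 to 9.13. The mean of those 12 was 8.71 there and 8.21 to 8.49 on the other 7 arrays. On TCL1 array b, where Epb41l4b was highest, 1 of 14 neutrophil markers was above the median of the other 7, against 57.3% of all genes, with a median difference of -1.07. The mean of that list was 4.98 on TCL1 array b and 4.97 on TCL1 array d, so the low reading was not limited to the array where Epb41l4b was highest.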
